A study of Mus musculus with 20 samples.

Results

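Wfs1, Fibcd1, Man1a, Mpped1, Pou3f1 and Spink8 are 6 genes used as markers of pyramidal neurons of hippocampal area CA1. They were followed here in pyramidal cells of the neighbouring subiculum of the mouse. The genes were chosen by symbol and found by Ensembl identifier among the 37607 gene rows of the bulk table, and by symbol among the 47295 gene rows of the single-cell table. Their identifiers are ENSMUSG00000039474 (Wfs1), ENSMUSG00000026841 (Fibcd1), ENSMUSG00000003746 (Man1a), ENSMUSG00000041708 (Mpped1), ENSMUSG00000090125 (Pou3f1) and ENSMUSG00000050074 (Spink8). All 6 were present in both tables, and all 6 passed the filter on low counts that left 13916 bulk genes for testing. No CA1 library is among the samples, so the name of the group rests on background knowledge, and its members could be compared only among subiculum cells.

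The bulk part held 4 populations of fluorescent subiculum neurons, each labelled by the region it projects to, and 3 biological replicates of each. The populations are called NA, PFC, RSC and VHN, as in the labels, which do not spell the names out. NA, PFC and RSC are the usual abbreviations of the nucleus accumbens, the prefrontal cortex and the retrosplenial cortex. The cells were sorted by hand after microdissection of slices. Strain, age and the way the cells were labelled are not given in the sources used here, nor whether the replicates came from separate animals, so p-values measure the spread between these libraries. For single cells, counts came from 384 wells of 4 plates, and 348 wells had at least 1000 detected genes. The labels list 8 single-cell samples, which cannot be matched to the 4 plates, so a plate here is only a prefix of the well names. These wells carry no projection label.

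The subiculum receives its main hippocampal input from CA1 and passes it on to cortical and subcortical regions, and the border between CA1 and subiculum is marked by a change in many transcripts. Wfs1 encodes wolframin, a membrane protein of the endoplasmic reticulum, and Man1a encodes a mannosidase of the Golgi apparatus that trims sugar chains on newly made glycoproteins. Fibcd1 encodes a membrane receptor that binds acetylated sugars such as chitin, and Spink8 belongs to the Kazal-type serine peptidase inhibitors. Mpped1 encodes a protein with a metallophosphoesterase domain, and Pou3f1 (also called Oct6 or SCIP) is a POU-domain transcription factor that binds octamer DNA motifs.

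The promoters of Man1a and Wfs1, which were higher in NA and PFC cells, and of Mpped1, which was lower, are printed for comparison. They are 300 bases long, from 250 before to 50 after the annotated start, and come from RefSeq with build GRCm38.p6. Capitals mark the GC box, GGGCGG or its complement CCGCCC, the element bound by Sp1-type factors. Man1a lies on the minus strand (chr10:54075688-54075987), Wfs1 on the minus strand (chr5:36988933-36989232) and the first Mpped1 start on the plus strand (chr15:83779773-83780072).
Man1a: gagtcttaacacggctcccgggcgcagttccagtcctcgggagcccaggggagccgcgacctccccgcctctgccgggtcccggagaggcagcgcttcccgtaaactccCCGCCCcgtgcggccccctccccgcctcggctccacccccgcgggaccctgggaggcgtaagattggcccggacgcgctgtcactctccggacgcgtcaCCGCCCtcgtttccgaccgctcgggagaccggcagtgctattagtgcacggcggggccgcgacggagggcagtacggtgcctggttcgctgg
Wfs1: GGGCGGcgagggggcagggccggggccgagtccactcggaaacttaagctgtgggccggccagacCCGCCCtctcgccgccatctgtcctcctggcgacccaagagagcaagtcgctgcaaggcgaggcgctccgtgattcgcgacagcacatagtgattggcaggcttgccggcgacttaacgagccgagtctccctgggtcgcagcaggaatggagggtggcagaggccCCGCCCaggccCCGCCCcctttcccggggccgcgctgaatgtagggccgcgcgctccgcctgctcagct
Mpped1: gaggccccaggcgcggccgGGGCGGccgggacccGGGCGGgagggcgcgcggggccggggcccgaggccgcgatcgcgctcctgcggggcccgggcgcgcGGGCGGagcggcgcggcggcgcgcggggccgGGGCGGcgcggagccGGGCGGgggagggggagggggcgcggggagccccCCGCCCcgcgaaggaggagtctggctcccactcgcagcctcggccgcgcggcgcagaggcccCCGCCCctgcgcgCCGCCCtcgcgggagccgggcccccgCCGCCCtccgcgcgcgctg

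All 3 promoters were rich in G and C. Their GC content was 72.7% for Man1a, 70.0% for Wfs1 and 89.3% for Mpped1, against a median of 52.7% over the 32851 RefSeq promoters of this length. They held 38, 30 and 59 CpG dinucleotides in the same order of genes, against a median of 7. The GC box occurred 2 times in Man1a, 4 times in Wfs1 and 9 times in Mpped1, both strands counted, and 35.7% of all promoters held at least 1. The Fibcd1 promoter (chr2:31845956-31846255, minus strand) was alike, with 74.3% GC, 46 CpG and 2 GC boxes. A second Mpped1 start (chr15:83784579-83784878, plus strand) differed, with 47.3% GC, 3 CpG and no GC box. The POU octamer ATGCAAAT, found in 1.74% of all promoters, and the TATA box TATAAA, found in 13.6%, were in none of these 5 windows. The E-box CANNTG was present 1 time in Wfs1 and 1 time at the second Mpped1 start, and in 72.3% of all promoters. So the 3 printed promoters, from genes that moved in opposite directions, were all GC-rich and held no TATAAA. Promoters were matched for 4 of the 6 genes, not for Pou3f1 and Spink8.

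Bulk libraries held 10777273 to 20904126 gene fragments. The excitatory marker Slc17a7, the vesicular glutamate transporter of cortical pyramidal cells, was abundant in every library, at 513 to 1023 CPM (the fragment count relative to the size of the library, scaled by the TMM method). The dentate granule cell marker Prox1 was at 0 in 9 libraries and at most at 1.96 CPM. Interneuron transcripts stood apart in 3 libraries. Gad2, which makes the transmitter GABA, was at 43.3 CPM in RSC replicate 2, 177 CPM in RSC replicate 3 and 91.8 CPM in VHN replicate 3, and at most at 7.39 CPM elsewhere. Results were therefore also computed without these 3 libraries, which left RSC replicate 1 as the only RSC library. A further fit left out NA replicate 2 and PFC replicate 3, which lay away from their own populations on principal components of expression. In bulk samples, fewer cells that express a gene and less RNA of it per cell cannot be told apart.

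NA and PFC cells together had more Man1a, Spink8 and Wfs1 and less Mpped1 than RSC and VHN cells together. Pou3f1 and Fibcd1 did not pass the test. Of the 6 genes, 4 passed (3 higher, 1 lower) at an edgeR quasi-likelihood adjusted p under 0.05, where 14.2% of all genes tested passed (7.58% higher and 6.66% lower). The median log2 fold change of the 6 was 1.33, against 0.013 over all genes tested. The sum of the 6 was 628 to 693 CPM in the NA libraries, 769 to 1496 CPM in the PFC libraries, 435 to 516 CPM in the RSC libraries and 428 to 518 CPM in the VHN libraries.

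**Figure D1:**
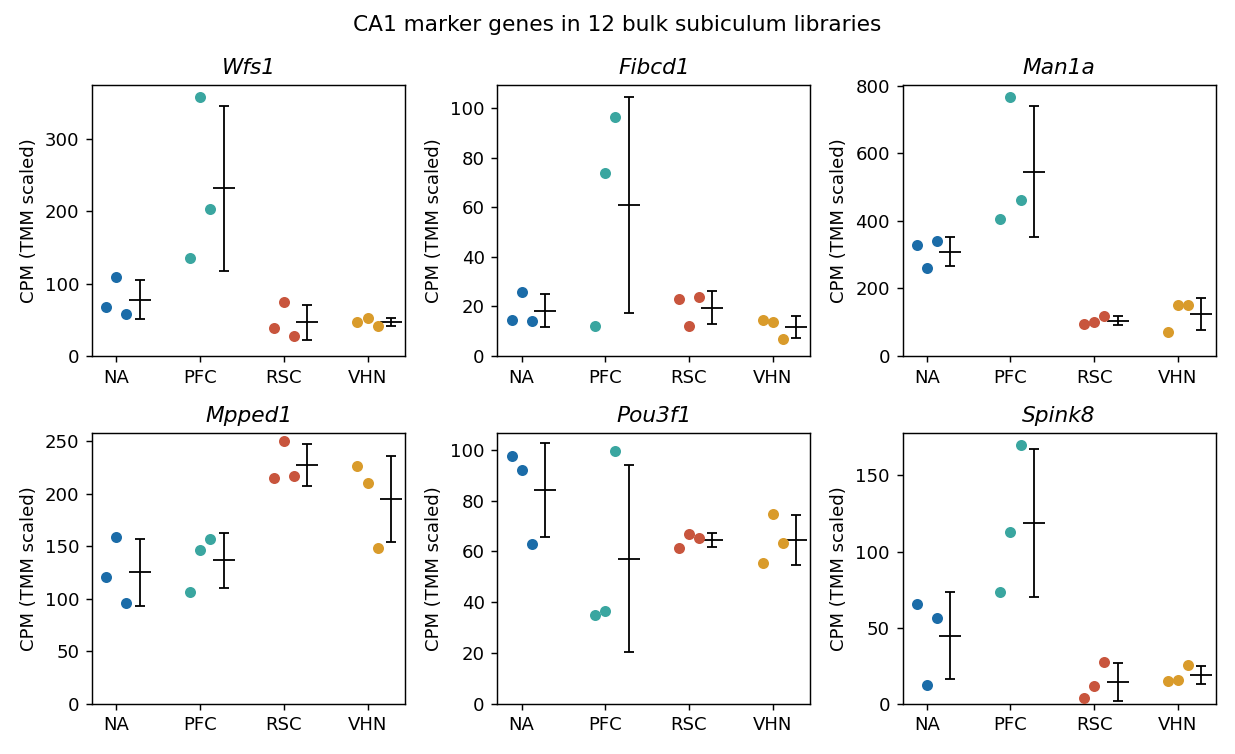
Level of each of the 6 genes in the 12 bulk libraries, in CPM with TMM scaling. Points are libraries, the bar is the mean and the whiskers are 1 SD over 3 replicates per population. Man1a separates NA and PFC from RSC and VHN in every library, Fibcd1 has 1 low and 2 high PFC libraries, and Pou3f1 has 1 high PFC library.

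Man1a was at 328, 259.5 and 341 CPM in NA replicates 1 to 3 and at 406, 768 and 463 CPM in the PFC libraries, against 93.4, 100.3 and 119 CPM in the RSC libraries and 69.9, 152 and 149.9 CPM in the VHN libraries. Every NA and PFC library lay above every RSC and VHN library, as was the case, in this direction, for 3.57% of genes. The mean of the NA and PFC libraries was 428 CPM and that of the RSC and VHN libraries 114 CPM, 3.75-fold higher in NA and PFC (log2 fold change 1.86, SE 0.207, edgeR adjusted p = 1.98e-05). Its adjusted p was the smallest of the 6, and in this comparison it passed under each alternative processing and without any single library.

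Wfs1 was at 67.2, 108.6 and 57.8 CPM in NA and at 135, 358 and 203 CPM in the PFC libraries. It was at 38.3, 74.2 and 27.1 CPM in RSC and at 46.3, 52.1 and 42.0 CPM in the VHN libraries. All PFC libraries exceeded all others, whereas NA replicates 1 and 3 lay below RSC replicate 2, so the 2 sides overlapped. Taken pair by pair, PFC libraries lay above all RSC libraries for 14.7% of genes and above all NA libraries for 7.14%. The mean was 155 CPM over the NA and PFC libraries and 46.7 CPM over the RSC and VHN libraries, 3.32-fold higher in NA and PFC (log2 fold change 1.53, SE 0.285, edgeR adjusted p = 0.00164).

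Spink8 was at 65.8, 12.2 and 56.0 CPM in NA and at 73.2, 113 and 169.7 CPM in the PFC libraries. It was at 3.46, 11.9 and 27.7 CPM in RSC and at 14.9, 15.7 and 25.5 CPM in the VHN libraries. NA replicate 2, which held 114 fragments of the gene, lay among the RSC and VHN libraries, while the other 5 NA and PFC libraries lay above all of them. The mean was 81.6 CPM over the NA and PFC libraries and 16.5 CPM over the RSC and VHN libraries, 4.94-fold higher in NA and PFC (log2 fold change 2.15, SE 0.471, edgeR adjusted p = 0.00515). Without the 3 libraries high in interneuron transcripts the log2 fold change was larger, at 3.33, while the median over all genes of that fit was 0.183. That fit kept 1 RSC library, RSC replicate 1, which held 60 fragments of Spink8, so the larger value rests on few fragments.

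Fibcd1, which had the lowest mean FPKM of the 6 in each population, was at 14.6, 25.9 and 14.2 CPM in NA and at 12.2, 73.9 and 96.6 CPM in the PFC libraries. It was at 23.0, 11.9 and 23.7 CPM in RSC and at 14.7, 13.6 and 6.65 CPM in the VHN libraries. Its high values were in PFC replicates 2 and 3, and PFC replicate 1 lay among the other populations. The log2 fold change of NA and PFC over RSC and VHN was 1.14 (SE 0.450, edgeR adjusted p = 0.105). It passed without PFC replicate 1 (1.38, edgeR adjusted p = 0.0241) and in DESeq2 (1.17, adjusted p = 0.0411). The same PFC library was low in Zbtb20, a zinc finger transcription factor needed for CA1 identity, at 48.9 CPM against 551 and 608 CPM in PFC replicates 2 and 3. Each of the 6 genes was lowest of the PFC libraries in replicate 1, by little for Pou3f1 (35.1 CPM against 36.7 CPM in replicate 2). The sum of the 10 other CA1 genes, described below, was also lowest there, at 2061 CPM against 2716 and 2714 CPM in PFC replicates 2 and 3. Not all of the 10 followed this. Dcn was highest of the PFC libraries in replicate 1. Ccn3 (729 ± 43.3 CPM) and Itpka (127 ± 10.8 CPM) varied little over the PFC libraries (SD, n = 3).

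Mpped1 went the other way. It was at 120.5, 159 and 96.2 CPM in NA and at 107, 146 and 157 CPM in the PFC libraries, against 215, 250.4 and 217 CPM in the RSC libraries and 227, 210.2 and 149 CPM in the VHN libraries. All NA and PFC libraries were below all RSC libraries, as 12.7% of genes were for NA alone and 15.5% for PFC alone. However, VHN replicate 3 lay below NA replicate 2 and PFC replicate 3. The mean was 131 CPM over the NA and PFC libraries and 211 CPM over the RSC and VHN libraries (log2 fold change −0.69, SE 0.175, edgeR adjusted p = 0.0137), so it was 1.61-fold lower in NA and PFC. The call was lost without the 3 libraries high in interneuron transcripts, a fit with 1 RSC library, while the log2 fold change there was −0.72.

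The call for Mpped1 was also lost on the authors' FPKM values (−0.44, limma adjusted p = 0.305, on the log2(FPKM + 1) scale). The deposited FPKM did not follow the fragments of this gene in 2 libraries. Relative to the median library, 1 CPM of Mpped1 corresponded to 1.40 times the FPKM in NA replicate 2 and 1.91 times in PFC replicate 3. Its FPKM was 36.0, 68.1 and 29.0 in NA and 32.6, 47.3 and 91.6 in PFC, against 64.4, 76.5 and 65.2 in RSC and 71.0, 63.6 and 45.4 in VHN. On this scale PFC replicate 3 was the highest of the 12 libraries, whereas by counts it lay below all RSC libraries. The same ratio stayed within 0.992 to 1.01 for Fibcd1 and Pou3f1, 0.979 to 1.12 for Wfs1 and 0.979 to 1.08 for Man1a, and spanned 0.931 to 1.30 for Spink8. What made the ratio differ was not tested.

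**Figure D2:**
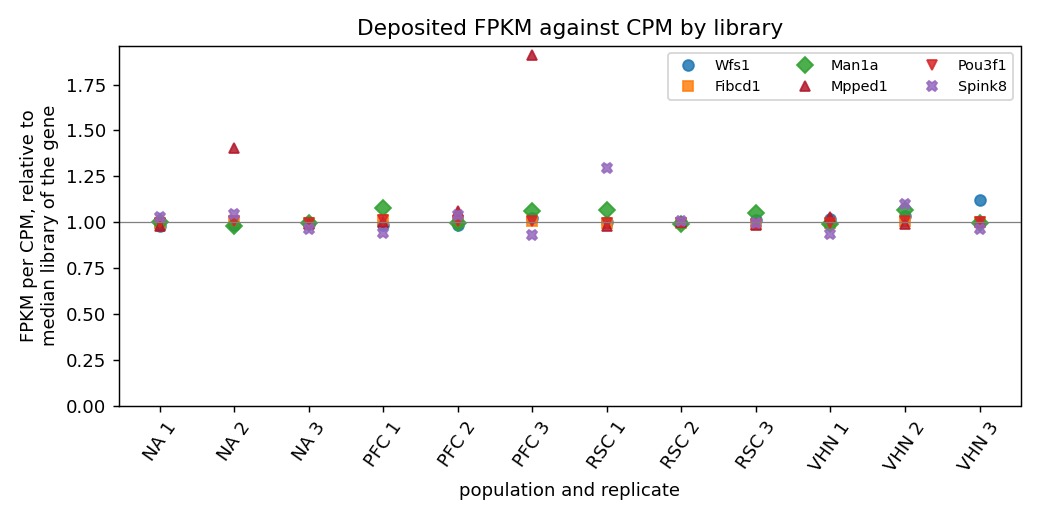
Ratio of deposited FPKM to CPM for each of the 6 genes (symbols) in each bulk library, divided by the gene's median over the 12 libraries. A value of 1 means that both units place the library alike, and Mpped1 departs from it in PFC replicate 3 (1.91) and NA replicate 2 (1.40).

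Pou3f1 was at 97.4, 92.1 and 63.1 CPM in NA and at 35.1, 36.7 and 99.7 CPM in the PFC libraries, against 61.5, 66.9 and 65.1 CPM in the RSC libraries and 55.6, 74.8 and 63.1 CPM in the VHN libraries. The PFC libraries spanned both the lowest values and the highest, and the RSC libraries differed least. The log2 fold change of NA and PFC over RSC and VHN was 0.10 (SE 0.270, edgeR adjusted p = 0.842), with means of 70.7 CPM over the NA and PFC libraries and 64.5 CPM over the RSC and VHN libraries. Its sign depended on PFC replicate 3, since it was −0.23 without that library (edgeR adjusted p = 0.559).

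Per length, the 6 genes stood in 1 order in RSC and VHN, and NA and PFC each had another order. In NA, mean FPKM was 68.6 ± 43.7 for Spink8, 60.2 ± 9.12 for Man1a, 44.4 ± 20.9 for Mpped1, 27.3 ± 6.05 for Pou3f1, 21.9 ± 7.58 for Wfs1 and 3.76 ± 1.39 for Fibcd1 (SD, n = 3). In PFC, it was 176 ± 68.2 for Spink8, 111 ± 34.5 for Man1a, 66.1 ± 32.0 for Wfs1, 57.2 ± 30.7 for Mpped1, 18.7 ± 12.01 for Pou3f1 and 12.6 ± 9.02 for Fibcd1 (SD, n = 3). In RSC, Mpped1 led at 68.7 ± 6.74 FPKM, ahead of Spink8 at 22.5 ± 18.0, Man1a at 21.1 ± 2.86, Pou3f1 at 20.8 ± 0.881, Wfs1 at 13.3 ± 6.99 and Fibcd1 at 4.00 ± 1.35 (SD, n = 3). VHN had the same order, with Mpped1 at 60.02 ± 13.2, Spink8 at 28.5 ± 8.33, Man1a at 24.8 ± 9.84, Pou3f1 at 21.01 ± 3.27, Wfs1 at 14.1 ± 1.09 and Fibcd1 at 2.40 ± 0.897 FPKM (SD, n = 3). Spink8 and Man1a lay within their spread of each other in all 4 populations, and so did Spink8, Man1a and Pou3f1 in RSC and VHN. Other neighbours did too, such as Man1a and Mpped1 in NA, Pou3f1 and Wfs1 in NA, and Wfs1 and Mpped1 in PFC. The place of Mpped1 in NA and PFC also rests on the FPKM values that did not follow its fragments.

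The pairs of populations were then compared one by one. These comparisons share libraries and are given side by side. PFC had the most of Wfs1, Man1a, Spink8 and Fibcd1, and NA the next most of Wfs1, Man1a and Spink8. Over all 4 populations, Man1a (edgeR adjusted p = 0.00012), Wfs1 (adjusted p = 0.00147) and Spink8 (adjusted p = 0.0136) differed, 3 of the 6 where 8.93% of all genes did. The other 3 did not pass, with adjusted p = 0.0628 for Fibcd1, 0.0703 for Mpped1 and 0.729 for Pou3f1. The Spink8 call was lost without PFC replicate 3 (adjusted p = 0.0690).

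In PFC over VHN, 4 of the 6 were higher, where 5.08% of all genes passed and 2.41% were higher. Man1a averaged 546 ± 195 CPM in the PFC libraries and 124 ± 46.7 CPM in the VHN libraries (SD, n = 3 each; log2 fold change 2.14, SE 0.296, edgeR adjusted p = 0.000531). Wfs1 averaged 232 ± 114 CPM in the PFC libraries and 46.8 ± 5.06 CPM in the VHN libraries (SD, n = 3 each; 2.31, SE 0.413, edgeR adjusted p = 0.00326). Both passed when any library was left out. Spink8 averaged 119 ± 48.5 CPM in the PFC libraries and 18.7 ± 5.89 CPM in the VHN libraries (SD, n = 3 each; 2.66, SE 0.678, edgeR adjusted p = 0.0309). Fibcd1 averaged 60.9 ± 43.7 CPM in the PFC libraries and 11.7 ± 4.37 CPM in the VHN libraries (SD, n = 3 each; 2.38, SE 0.660, edgeR adjusted p = 0.0460). The Spink8 call was lost without PFC replicate 2 (adjusted p = 0.0673) or 3 (adjusted p = 0.104) and without VHN replicate 1 (adjusted p = 0.123), 2 (adjusted p = 0.127) or 3 (adjusted p = 0.0625). The Fibcd1 call was lost in 10 of the 12 fits that left out 1 library, with PFC replicate 1 and NA replicate 2 as the exceptions.

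In PFC over RSC, 3 of the 6 were higher, where 9.77% of all genes passed and 4.88% were higher. The RSC means were 104 ± 13.1 CPM for Man1a, 46.5 ± 24.6 CPM for Wfs1 and 14.4 ± 12.3 CPM for Spink8 (SD, n = 3). The log2 fold changes were 2.39 for Man1a (SE 0.298, edgeR adjusted p = 0.000107), 2.32 for Wfs1 (SE 0.414, adjusted p = 0.00185) and 3.04 for Spink8 (SE 0.689, adjusted p = 0.00964). The value for Spink8 was 3.94 without RSC replicate 3. For all 3 genes the PFC libraries lay above the RSC libraries, as 14.7% of genes did. Fibcd1 was at 1.64 (SE 0.643, adjusted p = 0.128) and Mpped1 at −0.74 (SE 0.248, adjusted p = 0.0739), and all 3 PFC libraries of Mpped1 lay below the RSC libraries, as 15.5% of genes did.

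NA over RSC and NA over VHN gave the same 1 gene, Man1a. NA averaged 309 ± 43.7 CPM (SD, n = 3), which was higher than RSC (1.57, SE 0.291, edgeR adjusted p = 0.00365) and than VHN (1.32, SE 0.289, adjusted p = 0.0192). Of all genes, 5.82% passed in NA over RSC (3.47% higher) and 2.75% in NA over VHN (1.62% higher). The call over RSC was lost without the 3 libraries high in interneuron transcripts, a fit with 1 RSC library, while the log2 fold change there was 1.76. The call over VHN was lost without NA replicate 1 (adjusted p = 0.0533) or VHN replicate 1 (adjusted p = 0.0830). Wfs1 was at 0.74 (SE 0.397, adjusted p = 0.303) over RSC and 0.73 (SE 0.397, adjusted p = 0.359) over VHN. Spink8 was at 1.64 (SE 0.656, adjusted p = 0.160) over RSC and 1.26 (SE 0.649, adjusted p = 0.332) over VHN. Mpped1 was at −0.86 over RSC (SE 0.248, adjusted p = 0.0507), with all NA libraries below all RSC libraries, as 12.7% of genes were, and it passed in several alternative fits.

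Within the 2 sides, 0 members passed in the edgeR fit of all 12 libraries with the filter on low counts. In NA over PFC, 0.438% of all genes passed the adjusted test. The log2 fold changes were −1.58 for Wfs1 (SE 0.403, edgeR adjusted p = 0.0996), −1.74 for Fibcd1 (SE 0.645, adjusted p = 0.262), −0.82 for Man1a (SE 0.285, adjusted p = 0.235) and −1.41 for Spink8 (SE 0.649, adjusted p = 0.362). Mpped1 was at −0.13 (SE 0.247, edgeR adjusted p = 0.868) and Pou3f1 at 0.56 (SE 0.384, adjusted p = 0.555). All 3 NA libraries lay below all PFC libraries for Wfs1, Man1a and Spink8, which held for 7.14% of all genes. DESeq2 called Wfs1 (−1.57, adjusted p = 0.00949), and so did edgeR with the replicate number as a block (−1.54, adjusted p = 0.0400). Without the filter edgeR called Wfs1 (−1.56, adjusted p = 0.00046) and Man1a (−0.80, adjusted p = 0.0370). In RSC over VHN, edgeR called 0 genes (0%), against 721 at an unadjusted p under 0.05, 59 in DESeq2, 1 in limma-voom, 93 in edgeR without the filter and 19 without VHN replicate 1. The 6 genes ranged there from −0.38 for Spink8 to 0.75 for Fibcd1 on the log2 scale, each with edgeR adjusted p = 1.

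The other genes known from CA1 pyramidal cells were mostly higher in NA and PFC as well. Of a list of 10, 6 were higher in NA and PFC, 0 lower and 4 did not pass, where 7.58% of all genes were higher, with a median log2 fold change of 1.72, against 0.013 over all genes tested. Zbtb20 (3.86, edgeR adjusted p = 0.00053) had 1 PFC library far below the other 2, as given with Fibcd1. The matrix proteoglycan gene Dcn, decorin, was at 59.5, 93.7 and 37.6 CPM in the NA libraries and 346, 321 and 92.5 CPM in the PFC libraries, against 0, 0 and 9.61 CPM in the RSC libraries and 1.84, 7.73 and 3.09 CPM in the VHN libraries (5.10, edgeR adjusted p = 0.000862). All NA and PFC libraries of Dcn lay above all others, as was the case for 3.57% of genes. The secreted matrix-associated protein gene Ccn3 averaged 944 ± 1.86 CPM in the NA libraries and 729 ± 43.3 CPM in the PFC libraries, against 200 ± 20.7 CPM in the RSC libraries and 325 ± 154 CPM in the VHN libraries (SD, n = 3 each; 1.70, edgeR adjusted p = 1.71e-05). Calb1, encoding the calcium-binding protein calbindin (4.88, adjusted p = 0.00134), the neuronal transcription factor gene Neurod6 (1.83, adjusted p = 0.000108) and Itpka, an inositol trisphosphate kinase (1.74, adjusted p = 0.000491), were also higher. Gpr161 (0.17, adjusted p = 0.791), Ndst4 (−0.11, adjusted p = 0.698) and Pantr1 (−1.07, adjusted p = 0.126) were among those that did not pass. Of the 10, 6 were higher in PFC over RSC (4.88% of all genes), 5 in PFC over VHN (2.41%), 5 in NA over RSC (3.47%) and 2 in NA over VHN (1.62%), and 0 were lower in any of these.

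**Figure D3:**
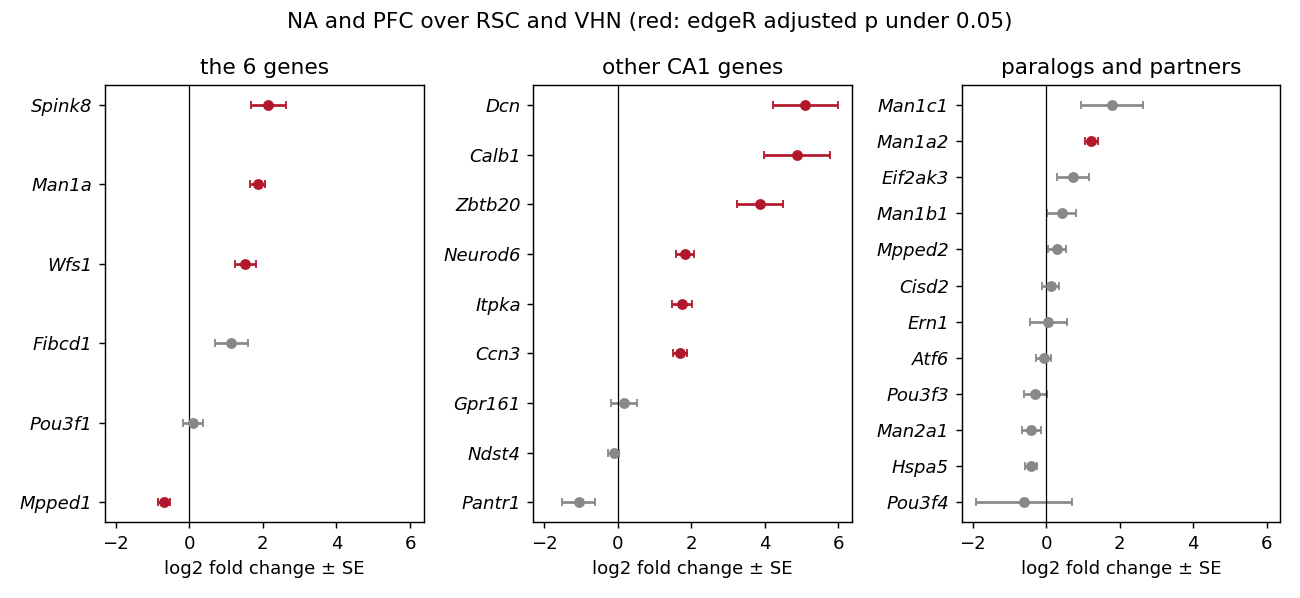
Log2 fold change of NA and PFC over RSC and VHN, with its SE, from the edgeR fit of all 12 libraries, for the 6 genes, the other CA1 genes reported here and 12 paralogs and partners. Red points have an adjusted p under 0.05, which 4, 6 and 1 of the genes in the 3 panels have, and the x axes are equal.

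Paralogs and functional partners of the 6 were compared to see whether relatives moved with them. Of 13 such genes, 12 had a bulk row and 1 of the 12 tested passed, where 14.2% of all genes passed, so the count of the list does not stand above that share. The gene that passed was Man1a2, the paralog of Man1a with the same enzymatic step. Man1a2 was at 166, 115 and 176 CPM in the NA libraries and 183, 281 and 316 CPM in the PFC libraries, against 81.0, 94.6 and 98.5 CPM in the RSC libraries and 82.0, 66.9 and 88.2 CPM in the VHN libraries. All NA and PFC libraries lay above all others, as was the case for 3.57% of genes (log2 fold change 1.23, SE 0.182, edgeR adjusted p = 0.00026). The other mannosidase genes did not pass, Man1c1 at 1.79 (adjusted p = 0.183), Man1b1 at 0.42 (adjusted p = 0.548) and Man2a1 at −0.40 (adjusted p = 0.322). The endoplasmic reticulum stress genes did not pass, with Hspa5 at −0.41 (adjusted p = 0.118), Eif2ak3 at 0.72 (adjusted p = 0.301), Ern1 at 0.06 and Atf6 at −0.07. Cisd2, the other gene of Wolfram syndrome in humans, was at 0.12 (adjusted p = 0.789), Mpped2 at 0.29 (adjusted p = 0.491), Pou3f3 at −0.30 (adjusted p = 0.586) and Pou3f4 at −0.60 (adjusted p = 0.808). The median log2 fold change of the 12 was 0.089.

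Markers of other cells and regions moved between the same sides, and their part in the results above was not tested. Of 7 genes typical of subiculum, 4 were lower and 2 higher in NA and PFC, where 6.66% of all genes tested were lower and 7.58% higher. Their summed level was 298 to 563 CPM in the NA libraries and 175 to 210 CPM in the PFC libraries, against 1367 to 1927 CPM in the RSC libraries and 1008 to 1746 CPM in the VHN libraries. The neuropeptide gene Nts was at 18.2 to 25.4 CPM in the NA libraries and 10.9 to 31.6 CPM in the PFC libraries, against 281 to 402 CPM in the RSC libraries and 199 to 405 CPM in the VHN libraries. Fn1, fibronectin, was at most at 14.4 CPM in the NA libraries and 0.0866 CPM in the PFC libraries, and at least at 381 CPM in the RSC libraries and 285 CPM in the VHN libraries. Also lower in NA and PFC were Slc17a6, a vesicular glutamate transporter gene (log2 fold change −2.01, edgeR adjusted p = 7.93e-06), and the receptor gene Gpr101 (−3.89, adjusted p = 5.86e-05). Higher were Dlk1 (8.005, adjusted p = 0.00133), with no fragment in RSC libraries, and Ntng2, a netrin-G gene (3.62, adjusted p = 0.0002), while Rprm was at 2.99 (adjusted p = 0.0550). For Dlk1 the libraries of the 2 sides overlapped. It averaged 133 ± 144 CPM in NA, 20.1 ± 17.8 CPM in PFC and 5.14 ± 4.64 CPM in VHN (SD, n = 3 each). The ratio of its mean CPM was 29.7, so the size of its log2 fold change is uncertain. The subiculum list therefore did not move in 1 direction.

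Beside each count that follows stands the share of all genes tested, 7.58% higher and 6.66% lower in NA and PFC. Of 6 general pyramidal markers, 4 were higher in the NA and PFC libraries and 0 lower, with sums of 2910 to 4347 CPM in the NA libraries and 3051 to 3771 CPM in the PFC libraries, against 1850 to 2023 CPM in the RSC libraries and 1924 to 2118 CPM in the VHN libraries. Of 9 interneuron markers, 6 could be tested and 4 were lower, with sums of 0.313 to 14.99 CPM in the NA libraries and 0.693 to 2.70 CPM in the PFC libraries, against 5.24 to 299.8 CPM in the RSC libraries and 1.26 to 194 CPM in the VHN libraries. For these 4 genes the libraries of the 2 sides overlapped. The sum was 67.1 CPM in RSC replicate 2, 299.8 CPM in RSC replicate 3 and 194 CPM in VHN replicate 3. It was 5.24 CPM in RSC replicate 1, and 1.26 and 3.57 CPM in VHN replicates 1 and 2. Gad1 averaged 0.932 CPM in NA and 0 CPM in PFC, and Npy 0.0207 CPM and 0 CPM, so little can be read from these calls. Of 10 CA3 and CA2 markers, 8 were tested, with 2 higher and 1 lower, and sums were 29.8 to 64.4 CPM in the NA libraries, 66.2 to 94.0 CPM in the PFC libraries, 34.6 to 77.0 CPM in the RSC libraries and 57.1 to 70.7 CPM in the VHN libraries. Of 7 dentate granule markers, 4 were tested and 0 passed in edgeR (also 0 at an unadjusted p under 0.05), with sums of 36.9 to 69.7 CPM over NA and PFC libraries and 21.8 to 36.9 CPM over RSC and VHN libraries. Astrocyte markers had 1 of 3 tested higher, and sums were 306 to 590 CPM in the NA libraries, 281 to 388 CPM in the PFC libraries, 130 to 387 CPM in the RSC libraries and 61.8 to 161 CPM in the VHN libraries. Nearly all of that sum was Slc1a2, a glutamate transporter gene, with means of 427 CPM in the NA libraries and 335 CPM in the PFC libraries, against 254 CPM in the RSC libraries and 122 CPM in the VHN libraries. Of the other astrocyte genes, Gfap, Aldh1l1 and Gja1 averaged at most 0.324 CPM in NA and were at 0 in the other populations. Slc1a3 averaged 3.27 CPM in NA, 0.883 CPM in PFC, 0 CPM in RSC and 0.262 CPM in VHN (log2 fold change 5.21, edgeR adjusted p = 0.0558). Aqp4 averaged 2.72 CPM in NA, 0.317 CPM in PFC, 0.231 CPM in RSC and 1.09 CPM in VHN (0.88, adjusted p = 0.778). Oligodendrocyte markers had 1 of 3 tested lower, endothelial and mural markers 1 of 1 higher (sums of 24.0 to 51.0 CPM in the NA libraries, 57.5 to 91.7 CPM in the PFC libraries, 5.65 to 10.6 CPM in the RSC libraries and 2.02 to 21.5 CPM in the VHN libraries), and the 4 microglia markers summed to at most 0.238 CPM in any library. The endothelial and mural gene that passed was Rgs5, with means of 37.1 CPM in the NA libraries and 76.5 CPM in the PFC libraries, against 7.42 CPM in the RSC libraries and 8.28 CPM in the VHN libraries, while the endothelial gene Cldn5 was at 0 in every library and Flt1 and Pecam1 averaged at most 1.04 CPM.

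Across the 12 libraries, Man1a followed Spink8 (Pearson r 0.84, Spearman rho 0.85) and Wfs1 (r 0.82, rho 0.78), and ran against Mpped1 (r −0.76, rho −0.79). Pou3f1 tracked no other member, with r between −0.24 and 0.15. These values describe libraries that fall into 4 populations, on the log2(CPM + 1) scale. Among 8517 genes with a symbol and a mean of at least 10 CPM, the 3 most like Man1a were Olfm1 (r 0.976), a secreted olfactomedin, Atp8a1 (r 0.975), a phospholipid flippase, and Nptx1 (r 0.958), a neuronal pentraxin. Those most like Wfs1 were the splicing factor gene Rbfox1 (r 0.960), Slc7a14 (r 0.910) and Fam19a1 (r 0.889). Among those most like Spink8 were the potassium channel subunit gene Kcnv1 (r 0.931) and Klhl5 (r 0.923). Fibcd1 was nearest to the calcium-dependent kinase gene Camk2b (r 0.913), the potassium channel regulator gene Abcc8 (r 0.875) and the calcineurin subunit gene Ppp3ca (r 0.867). Mpped1 was nearest to Thrap3 (r 0.929), the mitochondrial pyruvate carrier gene Mpc2 (r 0.924) and Dclk3 (r 0.919). Pou3f1 was nearest to the RNA polymerase III subunit gene Polr3c (r 0.900), Gpr161 (r 0.877) and Chn1 (r 0.873).

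The single-cell wells show how the 6 genes are spread over individual subiculum neurons. The 348 wells held from 2795 to 322542 counts, with a median of 112401 counts, and a median of 5222 genes was detected per well. No well was a copy of another. Slc17a7 was detected in 326 of them (93.7%), Gad1 in 3, Gad2 in 2 and Prox1 in 1. Of the glial and vascular genes, Gfap, Aldh1l1, Mag and C1qa were in 0 wells, but Mbp was in 197, Slc1a2 in 135 and Rgs5 in 33, and the others in 1 to 13. Since the wells carry no group, they are 1 pooled sample and no test applies. Intervals cover counting error only.

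Pou3f1, Spink8 and Mpped1 were detected in most wells, and Man1a, Wfs1 and Fibcd1 in fewer than the others. Pou3f1 had a count in 294 wells (84.5%, exact 95% interval 80.2 to 88.1%), with a median of 397 CPM, here without TMM scaling, and a maximum of 1621 CPM. Spink8 had a count in 269 wells (77.3%, interval 72.5 to 81.6%), with a median of 146 CPM and a maximum of 3824 CPM. Mpped1 had a count in 259 wells (74.4%, interval 69.5 to 78.9%), with a median of 73.4 CPM. For the other 3 the median well held 0 counts. Man1a was found in 156 wells (44.8%, interval 39.5 to 50.2%), Wfs1 in 123 (35.3%, interval 30.3 to 40.6%) and Fibcd1 in 99 (28.4%, interval 23.8 to 33.5%), with maxima of 900.2, 833 and 589 CPM. In these 3 genes more wells than not held no count, while single wells reached those maxima. After each well was thinned to 20000 counts, which 340 wells reached, the shares were 82.9% for Pou3f1, 67.1% for Spink8, 60% for Mpped1, 32.1% for Man1a, 24.4% for Wfs1 and 20.6% for Fibcd1. The order was the same at this even depth.

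Over the 4 plates, shares ranged from 80.0 to 88.0% for Pou3f1, 69.7 to 86.0% for Spink8, 69.7 to 79.1% for Mpped1, 33.7 to 51.2% for Man1a, 30.1 to 44.2% for Wfs1 and 18.9 to 36.0% for Fibcd1. A count of all 6 was present in 19 wells, of 5 in 62, of 4 in 103, of 3 in 90, of 2 in 38, of 1 in 18 and of none in 18. Across wells, levels were weakly related, with Spearman rho at most 0.37 (Man1a with Spink8) and at least −0.18 (Fibcd1 with Pou3f1).

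Because Calb1 was higher and Nts lower in NA and PFC libraries, wells were described by the same pair of genes, with a level of 100 CPM chosen after the values were seen. Wells with Calb1 at or above that level and Nts below it numbered 61 (17.5%), wells with Nts at or above it 204 (58.6%), and wells with both below it 83 (23.9%). Their median depth was 115774, 116846 and 81575 counts in that order. Between 50 and 200 CPM lay 65 wells for Nts and 20 for Calb1, so these classes are ranges of a level and not cell types. The Nts-high wells include 25 that were also at or above the level for Calb1. No well can be assigned to a projection target.

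Spink8, Fibcd1, Man1a and Wfs1 were higher in Calb1-high wells than in Nts-high wells, and Pou3f1 and Mpped1 lower, on each of the 4 plates. Spink8 had 664 CPM in the pooled counts of Calb1-high wells (exact Poisson interval 645 to 683) and 196 CPM in those of Nts-high wells (interval 191 to 202). It was detected in 98.4% of Calb1-high wells and in 79.9% of Nts-high wells, or 96.7% and 61.8% after thinning. Fibcd1 had 61.5 CPM (interval 55.8 to 67.5) in Calb1-high wells and 17.9 CPM (interval 16.3 to 19.6) in Nts-high wells, and was detected in 62.3% and 22.5% of them, or 45.9% and 15.2% after thinning.

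Man1a had 86.0 CPM (interval 79.3 to 93.1) in Calb1-high wells and 31.6 CPM (interval 29.5 to 33.9) in Nts-high wells, with 57.4% and 27.5% of wells positive after thinning. Wfs1 had 78.5 CPM (interval 72.2 to 85.3) in Calb1-high wells and 27.0 CPM (interval 24.97 to 29.1) in Nts-high wells. Its share after thinning was 29.5% (interval 18.5 to 42.6%) in Calb1-high wells and 21.6% (interval 16.1 to 27.9%) in Nts-high wells, and these intervals overlap. Before thinning, Wfs1 was detected in 50.8% (interval 37.7 to 63.9%) of Calb1-high wells and 32.8% (interval 26.4 to 39.7%) of Nts-high wells.

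Pou3f1 had 162 CPM (interval 153 to 172) in Calb1-high wells and 494 CPM (interval 485 to 503) in Nts-high wells, with 62.3% and 96.6% of wells positive after thinning. Per plate its mean was 101 to 265 CPM in Calb1-high wells and 418 to 619 CPM in Nts-high wells. The gene that did not pass between the bulk populations was thus lower in Calb1-high wells on every plate. Mpped1 had 91.2 CPM (interval 84.3 to 98.5) in Calb1-high wells and 124 CPM (interval 120.0 to 129) in Nts-high wells, while 60.7% (interval 47.3 to 72.9%) and 68.1% (interval 61.3 to 74.5%) of wells were positive after thinning. Wells low in both had pooled levels of 47.6 CPM for Wfs1, 25.4 CPM for Fibcd1, 44.7 CPM for Man1a, 95.2 CPM for Mpped1, 343 CPM for Pou3f1 and 248 CPM for Spink8. These lay between the other classes, but the share of these wells with a count was below both other classes for all 6 genes, and after thinning for all but Wfs1 and Pou3f1. The mean over wells was below both for Mpped1 (74.5 CPM) and Spink8 (191 CPM). Of the 2 wells with Gad1 or Gad2 at or above 100 CPM, 2 held a count of Pou3f1, 1 of Mpped1 and 1 of Spink8, and 0 held one of Wfs1, Fibcd1 or Man1a.

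The 25 wells high in both Calb1 and Nts were set apart after the values were seen. Their pooled levels were 550.1 CPM for Spink8 (interval 526 to 575), 55.03 CPM for Fibcd1 (interval 47.7 to 63.1), 65.9 CPM for Man1a, 49.3 CPM for Wfs1, 103 CPM for Mpped1 and 297 CPM for Pou3f1. In the 179 Nts-high wells without them, Spink8 was at 134 CPM (interval 129 to 139), Fibcd1 at 11.4 CPM (interval 10.03 to 12.95), Man1a at 25.7 CPM, Wfs1 at 23.1 CPM, Mpped1 at 128 CPM and Pou3f1 at 528 CPM. Wells high in both thus lay between the Calb1-high wells and these 179 for all 6 genes in pooled level. On each of the 4 plates the 6 genes differed between Calb1-high wells and the 179 in the same direction as with the 25 included.

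**Figure D4:**
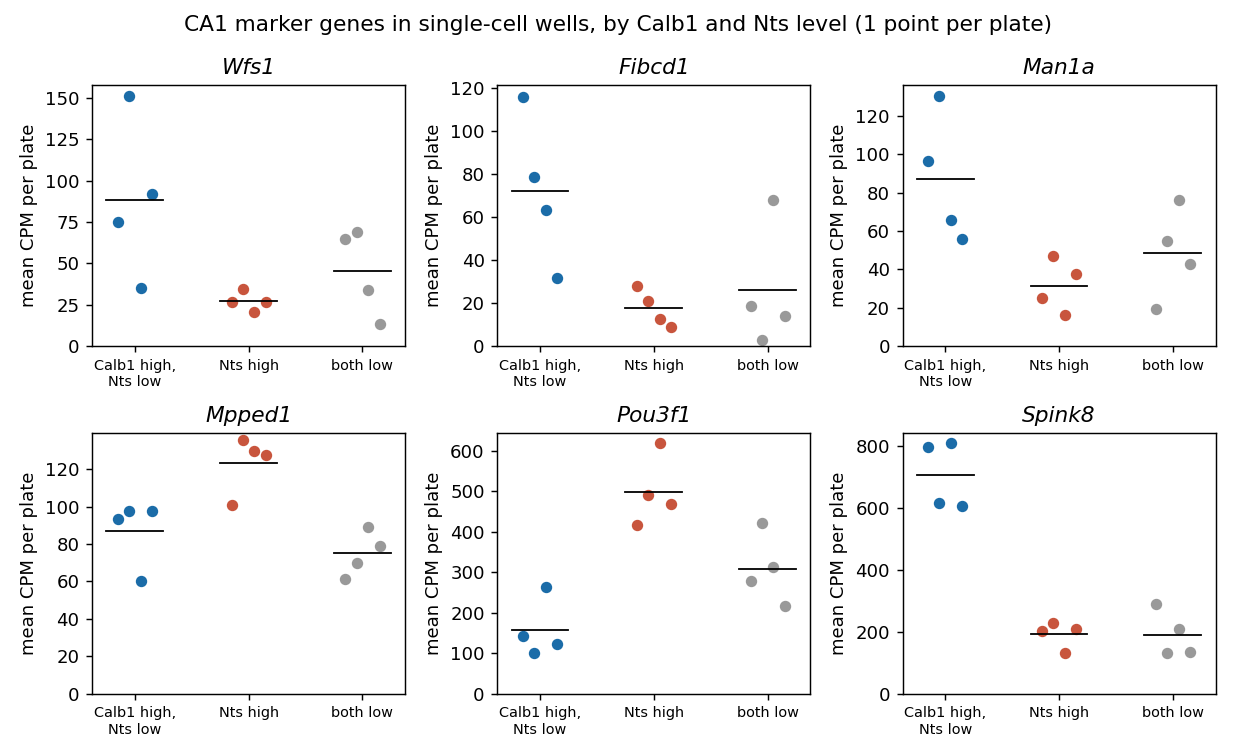
Mean CPM of each of the 6 genes per plate (points, 4 plates) in wells high in Calb1 and low in Nts, wells high in Nts (with those also high in Calb1), and wells low in both. The bar is the mean of the 4 plates, and in each plate Pou3f1 and Mpped1 are lower and the other 4 genes higher in Calb1-high than in Nts-high wells.

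Of the other CA1 genes in the same wells, Dcn averaged 693 CPM in Calb1-high wells and 51.2 CPM in Nts-high wells, and Ccn3 484 CPM in Calb1-high wells and 269 CPM in Nts-high wells. Neurod6 averaged 319 CPM in Calb1-high wells and 155 CPM in Nts-high wells, and Itpka 301 CPM in Calb1-high wells and 212 CPM in Nts-high wells. Zbtb20 averaged 26.9 CPM in Calb1-high wells and 16.1 CPM in Nts-high wells, but 91.3 CPM in wells low in both. Gpr161 averaged 60.2 CPM in Calb1-high wells and 105 CPM in Nts-high wells, and Ndst4 39.9 CPM in Calb1-high wells and 107 CPM in Nts-high wells. So Gpr161 and Ndst4, like Pou3f1 and Mpped1, were lower in Calb1-high than in Nts-high wells, and both had not passed between the bulk populations. Without the 25 wells high in both genes, Nts-high wells averaged 112 CPM for Gpr161 and 112 CPM for Ndst4, and 27.3 CPM for Dcn and 4.97 CPM for Zbtb20.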

How the data were processed

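The 6 genes and all gene lists were chosen with earlier results of these data known. The bulk values are expected counts of fragments per gene and library, deposited by the authors as Cuffdiff read-group output without normalization, per the file headers. The authors also deposited FPKM values, scaled per library and gene length, per the file headers. The single-cell values are raw counts per gene and well, as deposited, and whether molecular identifiers were used is not given in the sources used here. The genome build was mm9, per the submitters' processing notes, and aligner, counter version and strand setting are not given in the sources used here, so reads shared by overlapping genes cannot be told apart. The promoter coordinates are of another build, GRCm38.p6, and were not joined to the data.

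Bulk expected counts, of which 8.51% of those above 0 were not whole, were rounded. The 92 spike-in rows were 0 and left out, and 87.5% of gene rows matched a symbol. All 12 libraries entered 1 edgeR 4.0.16 quasi-likelihood fit (R 4.3.3) with TMM scaling, filterByExpr (smallest count 10), a common biological coefficient of variation of 0.736, 8 residual degrees of freedom and Benjamini-Hochberg adjustment over 13916 genes at 0.05. The fit was tested on simulated data. Alternatives used DESeq2 1.42.0 and limma 3.58.1. The table numbers replicates from 0 and the labels from 1, and the same order was assumed for names only. The text names the 6 genes, the 3 genes most like each by Pearson correlation, and the called genes of the other lists.

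Wells with at least 1000 detected genes were kept. Shares have exact Clopper-Pearson intervals and pooled levels exact Poisson intervals at 95%. Doublets were not called, since each well was meant to hold 1 cell. Symbols in the single-cell table are the authors', with Ccn3 listed under its older name Nov. Some genes that the naming rules chose are not reported here, though they stay in the fits and in the counts over lists.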

Additional observations from a re-analysis of the deposited data

How the results depend on the processing

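Of 1140 alternative values of the 6 genes, 1052 kept direction and side of the threshold, 30 lost it, 35 gained it and 23 changed sign, and no contrast of a member that was called changed sign. Same-numbered libraries did not deviate together over the genes tested (correlations −0.0261 to 0.0376 over 18 pairs), so no pairing by number was seen. Such correlations cannot exclude a pairing that touches few genes. With the replicate block, Wfs1 was called in NA over PFC (−1.54, edgeR adjusted p = 0.0400), and Fibcd1 was lost in PFC over VHN (adjusted p = 0.0940). Genes called in NA and PFC over RSC and VHN were 746 without RSC replicates 2 and 3 and VHN replicate 3, against 1982, and 1488 to 2176 when 1 library was left out (2326 without NA replicate 2 and PFC replicate 3). DESeq2 called 1504 genes higher and 1219 lower, where edgeR called 1055 and 927, and 913 and 1047 without scaling.

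Members called in NA over PFC were 1 with DESeq2 and 2 without the filter, against 0. In NA over RSC they were 2 without scaling, with DESeq2, with limma-voom and at 10 CPM in 3 libraries, against 1, mostly through Mpped1. They were 3 without the filter and without NA replicate 2 and PFC replicate 3. The Man1a call there was lost without RSC replicates 2 and 3 and VHN replicate 3, a fit with 1 RSC library. In NA over VHN, members called were 0 in a fit of only the 6 libraries, and in PFC over RSC 5 with DESeq2, against 3. In the 4-group test they were 5 with DESeq2, without the filter and at 10 CPM in 3 libraries, against 3. With 1 library left out, members called were 1 to 2 in NA over RSC, 0 to 1 in NA over VHN, 3 to 4 in PFC over RSC, 2 to 4 in PFC over VHN, 4 to 5 in NA and PFC over RSC and VHN, and 2 to 5 in the 4-group test. The share of all genes that passed in these alternative fits is not given for these pairs or for the 4-group test. A change in the number of members called therefore cannot be set apart from a change over all genes. The causes were not tested.

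Signs changed for Pou3f1 in NA and PFC over RSC and VHN (−0.034 with limma-voom, −0.27 without NA replicate 2 and PFC replicate 3), and in RSC over VHN (0.018 with limma-voom, 0.0019 with the replicate block). Mpped1 in RSC over VHN was −0.032 and Spink8 −2.15 without RSC replicates 2 and 3 and VHN replicate 3. With 1 library left out, log2 fold changes ranged from −0.23 to 0.23 for Pou3f1 in NA and PFC over RSC and VHN, −0.85 to 0.080 for Pou3f1 in PFC over RSC, −0.85 to 0.079 in PFC over VHN, and −0.097 to 0.12 for Pou3f1 in RSC over VHN. They ranged from −0.33 to 0.034 for Mpped1 in NA over PFC, −0.44 to 0.065 for Fibcd1 in NA over RSC, −0.52 to 0.26 for Wfs1, 0.060 to 0.34 for Mpped1 and −1.28 to 0.078 for Spink8 in RSC over VHN.

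The share of wells with at least 5 counts was 23.6% for Wfs1, 19.8% for Fibcd1, 30.7% for Man1a, 62.4% for Mpped1, 80.2% for Pou3f1 and 67.2% for Spink8. Thinned to 20000 counts the share with a count was 24.4%, 20.6%, 32.1%, 60% and 67.1% for the same genes without Pou3f1. Thinned to 50000 counts, which 318 wells reached, it was 31.4% for Wfs1, 27.4% for Fibcd1, 42.5% for Man1a, 74.5% for Mpped1, 87.7% for Pou3f1 and 78.3% for Spink8. A setting added after seeing the data left 25 wells that were also Calb1-high out of the Nts-high wells, which put Fibcd1 there at 11.4 CPM, against 17.9 CPM with them, and kept every direction against Calb1-high wells.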
